A study of Saccharomyces cerevisiae with 4 samples.

Results

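Stable unannotated transcripts (SUTs) are the noncoding RNA polymerase II transcripts of budding yeast (Saccharomyces cerevisiae) that can be seen in wild-type cells without removal of a decay pathway. The SUTs described here are the 500 rows of the deposited annotation whose transcript name starts with SUT, out of 6030 rows in all. The others are 4928 open reading frame (ORF) transcripts and 2 further noncoding classes, 433 XUTs (sensitive to the exonuclease Xrn1) and 169 CUTs (cryptic unstable transcripts). 2 libraries, called with rapa, came from cells given rapamycin and 2, called no rapa, came from cells without it. All 4 were made from 1 strain, Y40343 Ssl2-FRB::kanMX6, so the no rapa cells carry the tag too. Ssl2 is the DNA translocase of TFIIH that opens promoters, and in the anchor-away method rapamycin ties an FRB-tagged protein to an anchor that carries it out of the nucleus. Cells grew at 30 C in YPD medium, and the RNA was labelled with 5 mM 4-thiouracil for 6 min and purified. The dose and duration of rapamycin are not known here. A strain without the tag was not analysed here, so an effect of rapamycin itself and an effect of moving Ssl2 cannot be told apart. The labels do not say that the 2 libraries of a group came from separate cultures, so each p-value reflects library spread that may be only technical.

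Many yeast promoters fire in both directions from a shared nucleosome-depleted region, and many SUTs start at the back of a gene's promoter or at the 3′ end of a gene and run antisense to it. Their neighbours on the chromosome can therefore share a promoter with them or lie on the other strand of the same DNA. CUTs are ended by the Nrd1-Nab3 complex and degraded by the nuclear exosome, XUTs are degraded in the cytoplasm by Xrn1, and SUTs are mostly more stable than both.

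The DNA around the starts of 7 SUTs is shown because these SUTs and their neighbours changed differently with rapamycin. The first 6 are the whole regions between a SUT and a divergent ORF transcript, from the base after the neighbour's start to the base before the SUT's start, on the strand of the SUT. They belong to divergent pairs in which the SUT and the gene differed in change, as given further on. The last runs from 150 bases before to 50 bases from the start of SUT013. All were read from the RefSeq R64 genome. Capitals mark TATAAA or TATATA on either strand and the Reb1 motif TTACCCG on either strand.
SUT714 and YML131W, chrXIII:9908-10157, minus strand: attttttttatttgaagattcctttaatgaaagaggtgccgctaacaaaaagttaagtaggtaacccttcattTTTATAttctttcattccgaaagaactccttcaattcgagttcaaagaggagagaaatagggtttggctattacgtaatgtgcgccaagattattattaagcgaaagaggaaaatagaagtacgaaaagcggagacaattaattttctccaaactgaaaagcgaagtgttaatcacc
SUT355 and MCH4, chrXV:96398-96645, plus strand: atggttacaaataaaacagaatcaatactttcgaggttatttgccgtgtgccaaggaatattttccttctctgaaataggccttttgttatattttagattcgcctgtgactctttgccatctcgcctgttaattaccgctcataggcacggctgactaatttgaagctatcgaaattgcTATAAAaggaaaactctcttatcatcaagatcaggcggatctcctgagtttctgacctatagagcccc
SUT292 and ERV41, chrXIII:140235-140415, plus strand: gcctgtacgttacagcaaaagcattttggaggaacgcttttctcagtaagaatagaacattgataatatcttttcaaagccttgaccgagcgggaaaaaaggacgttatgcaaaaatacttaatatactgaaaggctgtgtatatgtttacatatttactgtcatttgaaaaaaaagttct
SUT339 and ESF2, chrXIV:724342-724488, plus strand: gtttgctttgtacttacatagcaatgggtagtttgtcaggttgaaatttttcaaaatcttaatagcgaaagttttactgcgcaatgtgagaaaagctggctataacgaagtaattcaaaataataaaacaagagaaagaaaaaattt
SUT098 and GCG1, chrV:503791-504004, plus strand: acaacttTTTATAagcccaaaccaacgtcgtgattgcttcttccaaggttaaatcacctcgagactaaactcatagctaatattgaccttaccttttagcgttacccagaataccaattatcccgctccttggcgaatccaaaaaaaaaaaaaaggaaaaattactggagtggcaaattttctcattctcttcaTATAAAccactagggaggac
SUT344 and YNR061C, chrXIV:743627-743792, plus strand: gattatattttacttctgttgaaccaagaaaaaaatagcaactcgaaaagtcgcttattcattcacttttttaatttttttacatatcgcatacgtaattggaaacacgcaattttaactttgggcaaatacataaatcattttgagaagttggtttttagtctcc
SUT013, chrII:276612-276811, plus strand: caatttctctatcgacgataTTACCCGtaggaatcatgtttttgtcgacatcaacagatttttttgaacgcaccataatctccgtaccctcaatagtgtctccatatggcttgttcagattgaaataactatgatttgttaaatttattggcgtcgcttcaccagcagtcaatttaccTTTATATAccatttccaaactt

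3 of the 6 shared regions held no TATAAA or TATATA, and none held TTACCCG. The region of SUT098 held TATAAA letters 20 and 207 bases before its start, that of SUT355 68 bases before and that of SUT714 177 bases before. The region of SUT355 overlaps YOL118C of the R64 annotation. That of SUT098 overlaps the noncoding transcript XUT_5F-238. The window of SUT013 lies inside the coding sequence of GAL10, and TTACCCG began 130 bases before the start. The R64 annotation lists an antisense noncoding RNA, YNCB0008W, over the same DNA. Within 150 bases before the start, TATAAA or TATATA on either strand was found at 34.8% of the 500 SUTs, against 39.5% of all 6030 rows and 40.5% of ORF transcripts. TTACCCG was found at 21 SUTs (4.2%), against 6.85% of all rows and 7.55% of ORF transcripts, and a run of AAAAAAA on either strand at 39.4% of SUTs and 40.4% of all rows. Within the first 200 transcribed bases, the sense-strand letters GTAA and GTAG, bound by Nrd1, occurred 1.61 times per SUT and 1.52 times per XUT. The values were 2.02 times per CUT and 1.23 times per ORF transcript. TCTT, bound by Nab3, occurred 1.46 times per SUT and 1.365 times per XUT, against 2.19 times per CUT and 0.981 times per ORF transcript. The 96 SUTs called higher with rapamycin (defined below) had 1.66 Nrd1 words and 1.62 Nab3 words each, and the 27 called lower 0.778 and 1.81. These are counts of letters, and no binding was measured.

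Rows of the annotation received 11441998 and 12685769 reads in the with rapa libraries and 32435994 and 29318499 in the no rapa libraries. Reads outside every row made up 50.45% and 49.95% of the reads with rapamycin and 33.7% and 33.1% without it, and the part of this difference in the results below was not tested. In with rapa replicate 2 these reads (12685766) almost equal those on rows. SUTs took 0.456% and 0.543% of the reads on rows with rapamycin and 0.397% and 0.404% without it. The means were 0.499 ± 0.062% with rapamycin and 0.401 ± 0.005% without it (SD, n = 2 each), a difference of 0.099 percentage points. An exact two-sided permutation test gave p = 0.333, the smallest value that 2 against 2 libraries can give. CUTs took 0.046% and 0.065% with rapamycin and 0.015% and 0.016% without it. The with rapa replicates stood apart from each other in SUTs and more so in the other noncoding classes. The median SUT was 0.41 log2 units higher in replicate 2 than in replicate 1, and 254 of 364 were higher there. The median XUT was 0.62 higher (248 of 332) and the median CUT 0.68 (74 of 101), while the median ORF transcript differed by -0.02. Between the no rapa replicates the median SUT and XUT each differed by 0.03 and the median CUT by 0.20. Log2 CPM (counts scaled to the size of each library) of the tested SUTs correlated at Pearson's r = 0.850 between the with rapa replicates and 0.970 between the no rapa replicates, across 364 SUTs that share these libraries. Pheromone genes of MATalpha cells (MF(ALPHA)1, STE3 and SAG1) summed to 678 and 714 CPM with rapamycin and 839 and 1002 CPM without it, with 1 of the 3 called lower. Of MATa genes, 5 were analysed and summed to 16.9 and 39.2 CPM with rapamycin and 22.5 and 18.7 CPM without it, with 3 called higher, none of which was called without no rapa replicate 1 or without no rapa replicate 2. Of 3 genes of haploid cells 2 were lower (STE4 with an adjusted p of 0.0831 without no rapa replicate 1 and 0.117 without no rapa replicate 2), with sums of 463.5 and 437.4 CPM with rapamycin and 664.9 and 689.4 CPM without it. 3 sporulation genes summed to 31.1 and 58.2 CPM with rapamycin and 62.9 and 48.6 CPM without it, with 1 called higher and 1 lower. The part of these genes in the results was not tested.

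SUTs were sparse. The median SUT had 25.5 and 64.5 reads in the with rapa libraries and 49 and 51.5 in the no rapa libraries, and 128, 76, 84 and 68 SUTs had none in with rapa replicates 1 and 2 and no rapa replicates 1 and 2. Per length, as RPKM (reads per kilobase and per 1e6 reads) over the bases that no other row of the same strand covers, the median of 446 SUTs was 5.97 with rapamycin and 3.25 without it. The median ORF transcript had 44.8 RPKM with rapamycin and 55.2 without it, 7.49 and 16.98 times the SUT median. 12 SUTs with rapamycin and 4 without it lay above the median ORF transcript. The remaining 54 SUTs had no base of their own and 53 of them had no reads in any library. HTSeq by default calls a read on 2 rows ambiguous and gives it to neither. Of the 61 SUTs at 0 in all 4 libraries, 60 shared bases with a row of the same strand, so their 0 is no measure of their transcription. The 10 SUTs with most reads held 27.0% and 19.6% of all SUT reads with rapamycin and 30.2% and 29.6% without it.

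**Figure D1:**
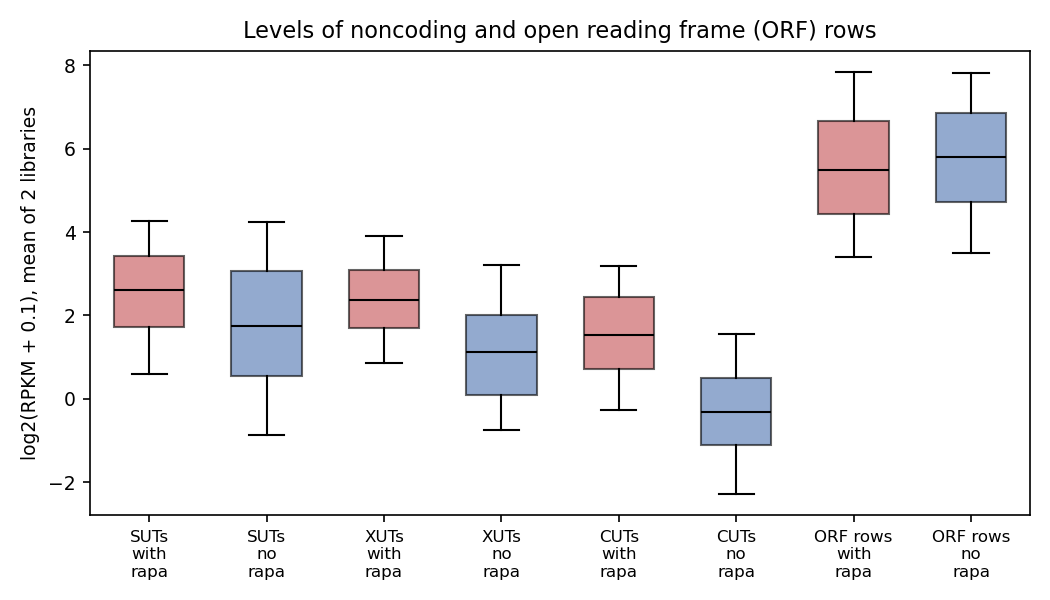
Levels of SUTs, XUTs, CUTs and ORF transcripts as log2 of mean RPKM plus 0.1, with rapa (red) left of no rapa (blue). Boxes span the quartiles around the median and whiskers the 10th to 90th percentile. The SUT median is 5.97 RPKM with rapamycin and 3.25 without it, and the ORF median 44.8 and 55.2.

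The 5 SUTs with the highest RPKM without rapamycin were all lower with it, although a choice by the no rapa level favours falls. SUT322 lies antisense to FET4, the low-affinity iron transporter, and had 46.5 RPKM with rapamycin and 134.5 without it. In CPM it had 120.6 and 87.1 with rapamycin, against 303.5 and 296.8 without it, and the groups did not overlap (log2 fold change -1.53 ± 0.19 SE, edgeR adjusted p = 5.79e-05). SUT342 lies upstream of the biotin synthesis gene BIO3 on the same strand, and antisense to YNR056C when placed against all R64 protein-coding genes. It had 94.4 and 65.6 CPM with rapamycin and 148.4 and 147.9 CPM without it (-0.89 ± 0.19, adjusted p = 0.00253). When with rapa replicate 2 was left out, the value was -0.56. SUT014, which overlaps TRM7, a tRNA methyltransferase gene, had 54.5 and 54.6 CPM with rapamycin and 111.5 and 107.7 CPM without it (2.01-fold lower, adjusted p = 0.000461). SUT460, antisense to INH1, whose product inhibits the mitochondrial ATP synthase, had 19.5 and 17.4 CPM with rapamycin and 35.1 and 51.8 CPM without it (-1.24 ± 0.25, adjusted p = 0.00186), and its adjusted p was 0.0526 without no rapa replicate 2. SUT670, antisense to OSI1, had 177.7 and 171.8 CPM with rapamycin and 261.0 and 229.9 CPM without it (-0.49 ± 0.16, adjusted p = 0.0282). Its adjusted p was 0.262 without no rapa replicate 1, 0.0818 without no rapa replicate 2 and 0.0805 without with rapa replicate 2.

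Relative to all rows, more SUTs rose than fell. Of 364 SUTs with enough reads to test, 96 (26.4%) were higher with rapamycin and 27 (7.42%) lower, and 241 were not called. Over all 5707 rows tested, 19.3% were higher and 26.7% lower (46.0% in all), and over ORF transcripts 17.5% and 30.2%. The tested SUTs are not all SUTs: 22 of them passed the filter on low counts through the with rapa libraries alone, 13 of which were among the 96, and 1 through the no rapa libraries alone. The median log2 fold change was 0.74 over tested SUTs (quartiles -0.02 and 1.53), -0.03 over all rows tested, -0.14 over ORF transcripts, 1.26 over 332 XUTs and 2.07 over 101 CUTs. Higher calls made up 31.0% of XUTs and 44.6% of CUTs, and lower calls 3.01% and 0% (no CUT was lower at an unadjusted p under 0.05 or by DESeq2). The 2 groups of libraries did not overlap at 238 of the 364 SUTs (65.4%), against 74.2% of all rows. These numbers depended on single libraries: without no rapa replicate 1 the fit called 32 SUTs higher and 12 lower, without no rapa replicate 2 it called 33 and 16, without with rapa replicate 1 193 and 36, and without with rapa replicate 2 116 and 55. The median SUT change was 1.04 without with rapa replicate 1 and 0.36 without with rapa replicate 2. The scaling assumes that the bulk of rows is unchanged. Scaled on ORF transcripts alone, the median of all rows moved up by 0.12 and 107 SUTs were called higher and 20 lower.

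The direction of change went with the level. Among SUTs with a mean log2 CPM under 1, 21 of 97 were called higher and 0 lower. Between 1 and 3, 44 of 141 were higher and 0 lower. Between 3 and 5, 23 of 100 were higher and 16 lower, and at 5 or more 8 of 26 were higher and 11 lower. In the 2 lower classes edgeR found 1 and 2 SUTs lower at an unadjusted p under 0.05, and DESeq2 called 0 in both. The medians of the 4 classes were 1.44, 0.90, 0.21 and -0.41. ORF transcripts also went from rises to falls with level, with medians of 2.01, 0.48, -0.07 and -0.25 in the same classes. Of them 35.9% (33 of 92), 20.3%, 12.3% and 18.2% (of 3534) were higher, against 21.65%, 31.2%, 23.0% and 30.8% of SUTs. Lower calls made up 0%, 2.4%, 16.5% and 37.2% of ORF transcripts and 0%, 0%, 16.0% and 42.3% of SUTs. No ORF transcript of the lowest class was lower at an unadjusted p under 0.05 in edgeR or by DESeq2. A fall is hard to call where few reads are counted. Of the tested SUTs, 22 passed the filter on low counts through the with rapa libraries alone, 13 of them called higher, and 1 through the no rapa libraries alone. The part of this in the trend with level was not tested. Across the 364 SUTs, which share libraries, the log2 fold change correlated with the mean log2 CPM at r = -0.380 (Spearman's rho -0.385) and with log2 length at r = -0.323 (rho -0.312). Of SUTs over 2000 bases, 6 of 47 tested were higher and 13 lower, and of those up to 500 bases, 13 of 48 tested were higher and 0 lower (1 at an unadjusted p under 0.05 in edgeR, 0 in DESeq2). Longer SUTs had higher RPKM without rapamycin (median 11.6 over 2000 bases and 0.943 up to 500 bases), so length and level were not separated.

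**Figure D2:**
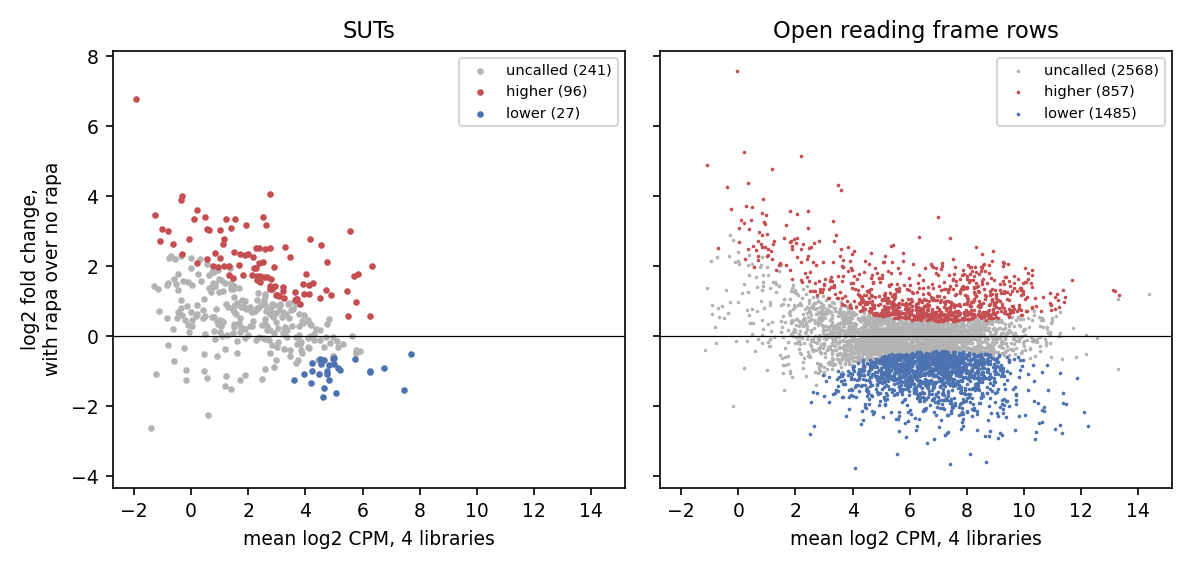
Log2 fold change, with rapa over no rapa, against mean log2 CPM for tested SUTs (left) and ORF transcripts (right), 1 point per row, red called higher and blue called lower. All 27 SUTs called lower have a mean log2 CPM above 3, while the 96 called higher are spread over all levels.

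By position, 290 SUTs (58.0%) overlap an ORF transcript on the opposite strand (antisense), and the median such SUT lies under its neighbour for 79.2% of its length. Another 82 (16.4%) diverge from the nearest ORF transcript, 61 lie upstream of it and 19 downstream of it on the same strand (tandem), 35 converge on it and 13 overlap it on the same strand. The 500 SUTs have 465 distinct neighbours. Of the 220 antisense SUTs tested, 72 (32.7%) were higher and 11 (5%) lower, with a median of 0.88. Of the 144 others, 24 (16.7%) were higher and 16 (11.1%) lower, with a median of 0.54. Divergent SUTs had 10 higher and 5 lower of 51 tested (median 0.53), SUTs upstream in tandem 6 and 5 of 48 (0.52), SUTs downstream in tandem 2 and 1 of 12 (0.61), convergent SUTs 4 and 4 of 23 (0.75), and SUTs with same-strand overlap 2 and 1 of 10 (0.04). Over all tested SUTs 26.4% were higher and 7.42% lower, and over all rows tested 19.3% and 26.7%. The difference between antisense and other SUTs was not tested. The annotation holds 4928 ORF transcripts, against 6021 protein-coding genes in R64. Placed against the R64 genes, 149 SUTs took another position and 310 were antisense, 247 of them antisense here too. More of the SUTs called lower were then antisense, as given at the end, so the contrast in lower calls rests on the deposited annotation. At mean log2 CPM between 3 and 5, 21 of 63 antisense SUTs were higher and 6 lower, and 2 of 37 others were higher and 10 lower. At 5 or more, 7 of 16 antisense SUTs were higher and 5 lower, and 1 of 10 others was higher and 6 lower. Below 1 the shares were close, at 11 of 53 antisense SUTs and 10 of 44 others higher. Leaving out 1 library at a time moved the antisense count of higher calls between 26 (without no rapa replicate 1) and 126 (without with rapa replicate 1), and that of lower calls between 4 (without no rapa replicate 1) and 22 (without with rapa replicate 2).

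**Figure D3:**
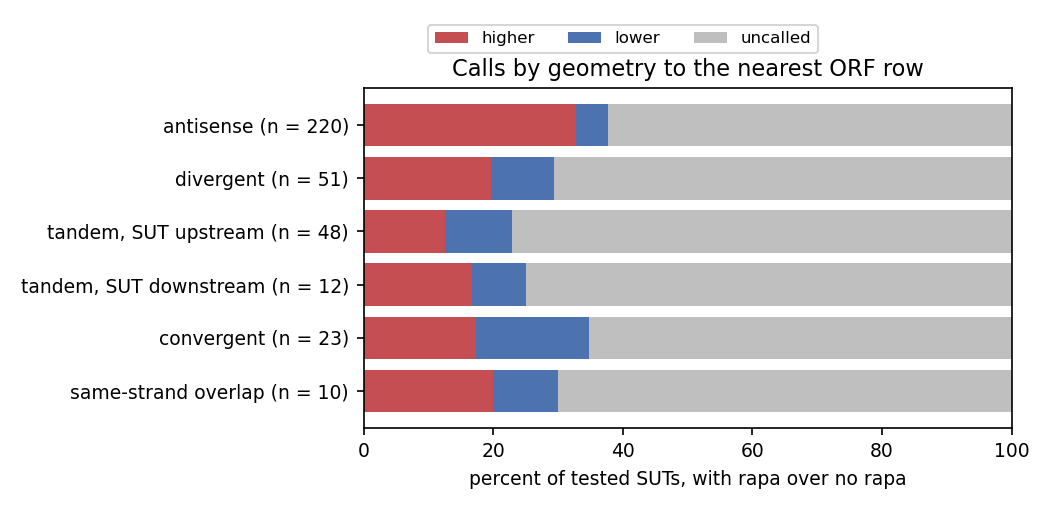
Percent of tested SUTs called higher, lower or not called with rapamycin, by position relative to the nearest ORF transcript, with the number tested beside each name. Antisense SUTs have 32.7% higher and 5% lower, divergent SUTs 19.6% and 9.80%, and all rows tested 19.3% and 26.7%.

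Many antisense SUTs also begin at the back of another gene's promoter. Counted by the nearest transcript start, 308 of the 500 SUTs started divergently, 167 of these being antisense to a gene. Of the antisense SUTs with such a start, 30 of 119 tested were higher and 9 lower. Of those whose nearest start belonged to a gene on the opposite strand that they run into or across, 32 of 85 were higher and 2 lower. Within 300 bases of a diverging ORF start lay 184 SUTs, with 34 higher and 9 lower of 131 tested. For comparison, 26.4% of all tested SUTs were higher and 7.42% lower, and 19.3% and 26.7% of all rows tested. Of 100 tested SUTs that overlap no other row on either strand, 17 were higher and 13 lower, with a median of 0.56. Some of these, such as SUT344 and SUT587, are antisense to an R64 protein-coding gene that the deposited annotation lacks. The counting told the strands apart, since of the 68 SUTs that lie wholly under 1 row of the opposite strand, 48 were counted in all libraries. The median over the 68 was 56 reads in no rapa replicate 1.

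The SUTs that rose most among those well measured were all antisense to a gene. Placed against all R64 protein-coding genes, most of those that fell most were antisense too. SUT494 (chrIV:1451185-1452863, minus strand) covers PLM2, a gene of a forkhead-associated domain protein. It had 152.5 and 117.3 CPM with rapamycin, against 21.0 and 12.8 without it, a 7.96-fold rise (log2 fold change 2.99 ± 0.25 SE, edgeR adjusted p = 6.26e-06). PLM2 itself had 16.7 and 18.2 CPM with rapamycin and 35.1 and 38.2 CPM without it (-1.07 ± 0.23, adjusted p = 0.00286). Per length, SUT494 had 80.3 RPKM with rapamycin and 10.1 without it, and PLM2 9.41 and 19.8. SUT206 (chrX:193857-195134, plus strand) covers NCA3, a gene of mitochondrial ATP synthase expression. It had 59.1 and 54.3 CPM with rapamycin, against 9.76 and 8.94 CPM without it (2.60 ± 0.23, adjusted p = 8.29e-06). NCA3 had 20.1 and 20.4 CPM with rapamycin and 47.1 and 52.7 CPM without it (-1.30 ± 0.22, adjusted p = 0.000445). The groups did not overlap in either SUT, which was a condition of their choice, or in either gene, as in 74.2% of all rows tested.

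SUT198 runs antisense to OPT1, an oligopeptide transporter gene. SUT198 had 77.8 and 38.7 CPM with rapamycin and 15.6 and 10.9 CPM without it (2.13 ± 0.32, edgeR adjusted p = 0.000223), while OPT1 had 326.7 and 250.1 CPM with rapamycin and 1249 and 1067 CPM without it (-2.01 ± 0.23, adjusted p = 3.76e-05). SUT188 is antisense to BCY1, the regulatory subunit of protein kinase A, and had 61.1 and 34.3 CPM with rapamycin, against 7.41 and 6.56 CPM without it (2.77 ± 0.31, adjusted p = 2.91e-05). BCY1 had a log2 fold change of -0.49 ± 0.18 (adjusted p = 0.0476, and 0.351 without no rapa replicate 1, 0.0598 without no rapa replicate 2 and 0.358 without with rapa replicate 2). The other SUTs picked for large rises were SUT335 (antisense to EFM6, log2 fold change 2.56), SUT383 (SCD5, 2.26), SUT445 (EDS1, 2.01) and SUT020 (ICS2, 1.78). Each was higher in both with rapa libraries than in either no rapa library, which was a condition of the choice. Of their neighbours, SCD5 was lower (-0.91 ± 0.17, adjusted p = 0.000894), EFM6 (1.46 ± 0.36, adjusted p = 0.00543, and 0.0764 without no rapa replicate 2) was higher and ICS2 was not called (0.17 ± 0.22, adjusted p = 0.553). EDS1 was called higher (1.36 ± 0.52, adjusted p = 0.0473), but not without no rapa replicate 1 (0.250), no rapa replicate 2 (0.107) or with rapa replicate 2 (0.452). SUT445 had the highest RPKM of any SUT with rapamycin, 136.5, against 33.8 without it. These values rest on the 1219 of its 3119 bases that no other row of its strand covers. SUT331, antisense to CYB5, had 8 and 8 reads with rapamycin and 0 and 0 without it, too few for a fold.

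The SUTs that fell most included pairs in which the gene rose. SUT013 (chrII:276762-278926, plus strand) is antisense to GAL10, the epimerase of galactose use that glucose represses. SUT013 had 12.8 and 14.1 CPM with rapamycin, against 44.1 and 45.3 CPM without it, a 3.33-fold fall (-1.74 ± 0.23, edgeR adjusted p = 9.61e-05). GAL10 had 33.4 and 28.5 CPM with rapamycin and 3.26 and 3.03 CPM without it (3.30 ± 0.32, adjusted p = 1.25e-05). Per length, SUT013 had 6.19 RPKM with rapamycin and 20.7 without it, and GAL10 13.9 and 1.41, so the gene was the higher of the pair with rapamycin and its antisense RNA without it. Of the other genes of that cluster, GAL7 had 7.33 and 17.2 CPM with rapamycin and 2.03 and 1.91 CPM without it (2.64 ± 0.54, adjusted p = 0.00183). GAL1 had 16.0 and 14.5 CPM with rapamycin and 18.5 and 14.1 CPM without it (adjusted p = 0.821).

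SUT344 diverges from YNR061C, with 166 bases between their starts, and had 17.1 and 21.4 CPM with rapamycin, against 57.3 and 61.6 CPM without it (-1.63 ± 0.22, edgeR adjusted p = 9.72e-05), while YNR061C had 20.3 and 26.7 CPM with rapamycin and 29.2 and 26.7 CPM without it (adjusted p = 0.436). SUT339 diverges from ESF2, a gene of ribosomal RNA processing, and had 17.2 and 20.2 CPM with rapamycin, against 36.9 and 42.6 CPM without it (-1.09 ± 0.23, adjusted p = 0.00251). ESF2 had 133.8 and 95.4 CPM with rapamycin and 64.3 and 72.6 CPM without it (0.74 ± 0.19, adjusted p = 0.00801, and 0.0787 without no rapa replicate 1). SUT459 fell together with the divergent zinc-cluster gene RDS1, at log2 fold changes of -1.48 ± 0.23 and -2.16 ± 0.22. SUT176, which ends 52 bases upstream of the invertase gene SUC2, had 24.1 and 27.2 CPM with rapamycin and 46.8 and 48.9 CPM without it (-0.90 ± 0.21, adjusted p = 0.00418), and SUC2 fell by 0.96 ± 0.19 on the log2 scale. Placed against all R64 protein-coding genes, SUT344 is antisense to YNR062C, SUT459 to YCR105W, SUT176 to YIL163C and SUT587, given next, to YHR124W. SUT587 (-1.32, converging on EPT1) and SUT148 (-1.25, antisense to NPR3) fell as well, the last with an adjusted p of 0.231 without no rapa replicate 1.

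**Figure D4:**
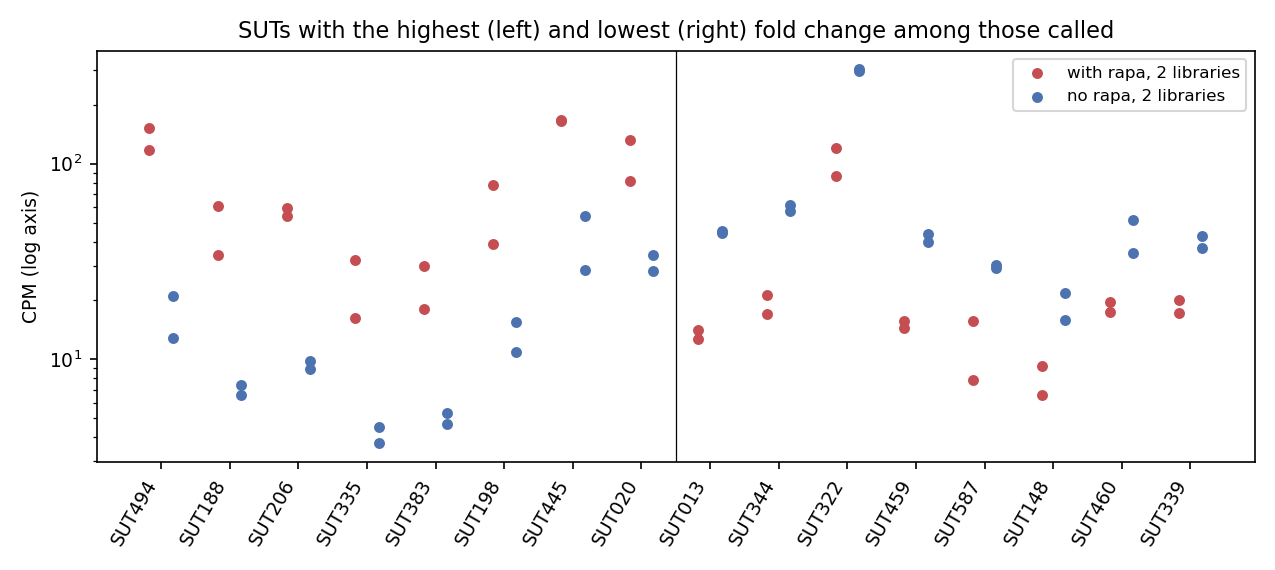
CPM (log axis) in each library for 8 SUTs that rose most (left) and 8 that fell most (right) among those called at a mean log2 CPM of at least 3, with rapa (red) left of no rapa (blue), 1 point per library. The members were chosen for their change and for not overlapping; SUT322 has 120.6 and 87.1 CPM with rapamycin and 303.5 and 296.8 without it.

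Some of the SUTs with the smallest adjusted p at the other positions follow. SUT581, SUT426, SUT821, SUT534, SUT452, SUT220, SUT278 and SUT574 were picked by the same rule and are not described. Among divergent SUTs, SUT303 (neighbour ISF1) had 9.59 and 5.60 CPM with rapamycin and 0.598 and 1.16 CPM without it (3.10 ± 0.66, edgeR adjusted p = 0.0024, and 0.0759 without no rapa replicate 1). SUT466 (ribosomal protein gene RPL4B) had 10.7 and 9.01 CPM with rapamycin and 2.59 and 1.46 CPM without it (2.27 ± 0.54, adjusted p = 0.00456, and 0.103 without no rapa replicate 2). Upstream in tandem, SUT367 ends 36 bases before the ribosomal protein gene RPL3 and had 18.5 and 10.4 CPM with rapamycin and 1.93 and 3.20 CPM without it (2.49 ± 0.49, adjusted p = 0.00144). Downstream in tandem, SUT352, behind the cell-surface protein gene ZPS1, had 13.8 and 25.1 CPM with rapamycin and 39.4 and 38.6 CPM without it (1.99-fold lower, adjusted p = 0.0122), while ZPS1 had 30.8 and 26.3 CPM with rapamycin and 4.25 and 3.47 CPM without it (2.88 ± 0.33, adjusted p = 3.28e-05). Among convergent SUTs, SUT068 had 15.4 and 16.9 CPM with rapamycin and 3.22 and 2.42 CPM without it (2.52 ± 0.41, adjusted p = 0.000433). Its neighbour is the hexose transporter gene HXT6, whose near-identical copy HXT7 makes its own counts uncertain. Log2 fold changes of the other neighbours were -1.08 ± 0.36 for ISF1, 1.03 ± 0.21 for RPL4B and 1.03 ± 0.30 for RPL3.

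SUT719 runs from the promoter of GAL80 across SUR7, a gene of the eisosome, a membrane furrow. Of its 1417 bases, 590 are covered by no other row of its strand. SUT719 had 15.1 and 6.88 CPM with rapamycin, against 2.79 and 2.35 CPM without it (2.09 ± 0.53, edgeR adjusted p = 0.0070). Its adjusted p was 0.0608 without no rapa replicate 1 and 0.0816 without no rapa replicate 2, and its log2 fold change was 1.39 without with rapa replicate 1. SUR7 had 43.0 and 44.3 CPM with rapamycin and 140.8 and 173.5 CPM without it (-1.85 ± 0.18, adjusted p = 1.23e-05). GAL80, which starts on the other side of that promoter, had 90.4 and 94.1 CPM with rapamycin and 77.0 and 65.6 CPM without it (0.37 ± 0.17, adjusted p = 0.0946).

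The change of a SUT and that of its neighbour were also compared across pairs. Over 363 pairs with both members tested, Pearson's r was 0.037 and 183 pairs had the same sign. Over the 220 antisense pairs r was 0.004 (rho -0.003), and over the 51 divergent pairs 0.210 (rho 0.213), which was 0.011 without with rapa replicate 2. Divergent pairs whose starts lie within 300 bases had r = 0.146 over 36 pairs, and those farther apart r = 0.355 over 15 pairs. Pairs share libraries and are not replicates, so these are descriptions. Of the 96 SUTs called higher, 29 had a neighbour called higher and 33 one called lower. Of the 27 called lower, 11 had a neighbour called lower and 10 one called higher. In all, 87 of the 363 neighbours were higher and 118 lower. Among antisense pairs, 23 had both higher, 23 the SUT higher and the gene lower, 4 both lower and 4 the SUT lower and the gene higher.

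The difference in change between a SUT and its neighbour was tested within each library, so that it does not rest on the scaling between libraries (limma, log2 CPM of the SUT minus that of the neighbour). The SUT moved above its neighbour in 101 of 363 pairs and below it in 28. Over all 792 noncoding pairs tested, 30.4% were above and 5.05% below. Antisense pairs had 72 above and 16 below of 220, and divergent pairs 12 above and 3 below of 51. The median difference was 0.70 log2 units over SUT pairs. Without no rapa replicate 1 the counts were 46 above and 18 below, without no rapa replicate 2 56 and 17, without with rapa replicate 1 184 above, and without with rapa replicate 2 69 below. Of pairs that no further row overlaps, 55 were above and 12 below. Fewer pairs enter there, so these counts cannot be set against 101 and 28.

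The largest positive differences among well-measured antisense pairs were those of SUT674 with SFK1 (4.40 ± 0.49 SE, limma adjusted p = 0.00068), SUT494 with PLM2 (4.08 ± 0.39, 0.00032), SUT198 with OPT1 (4.08 ± 0.38, 0.00032) and SUT206 with NCA3 (3.88 ± 0.36, 0.00032). SFK1, a plasma membrane protein gene, had 40.4 and 43.7 CPM with rapamycin and 346.7 and 292.8 CPM without it. SUT674, which lies wholly inside it, had 33.2 and 18.7 CPM with rapamycin and 6.91 and 11.4 CPM without it, and its own adjusted p of 0.00524 in edgeR was 0.051 without no rapa replicate 1. SUT719 differed from SUR7 by 3.79 ± 0.56 (0.0016). The largest negative differences were those of SUT013 with GAL10 (-4.99 ± 0.36, 0.00014), SUT665 with MBR1 (-2.42 ± 0.43, 0.0035), SUT460 with INH1 (-2.23 ± 0.39, 0.0030) and SUT063 with the catalase gene CTA1 (-1.55 ± 0.40, 0.017, and 0.203 without no rapa replicate 2). MBR1 had 37.5 and 23.9 CPM with rapamycin and 9.86 and 6.67 CPM without it, while SUT665 had 25.9 and 26.1 CPM with rapamycin and 33.3 and 43.1 CPM without it. SUT063 and SUT665 were not called by themselves (edgeR adjusted p = 0.384 and 0.0642), though SUT665 was without with rapa replicate 1 (adjusted p = 0.0388).

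**Figure D5:**
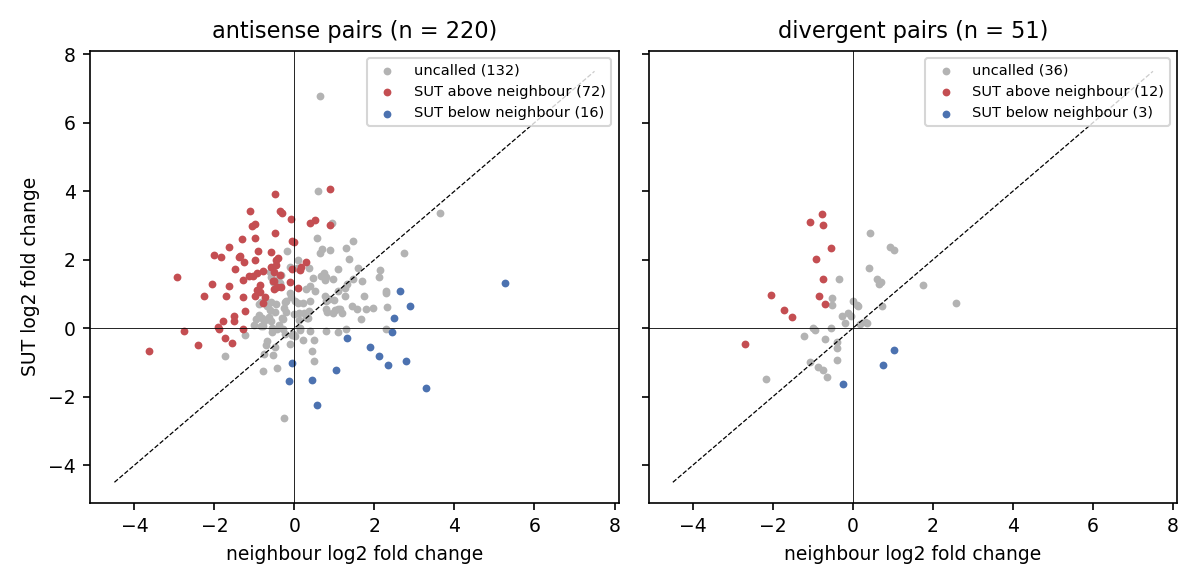
Log2 fold change, with rapa over no rapa, of each SUT against that of its neighbour for 220 antisense (left) and 51 divergent (right) pairs, with the line of equal change dashed. Red pairs have the SUT above its neighbour by limma and blue ones below it (72 and 16 antisense, 12 and 3 divergent), and the antisense points do not follow the dashed line.

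Of the 6 divergent pairs whose shared DNA is shown above, 3 had the SUT above the gene. Placed against all R64 protein-coding genes, SUT355 is antisense to YOL118C and SUT292 to YML066C, as SUT344 is to YNR062C. SUT714 had 12.1 and 13.7 CPM with rapamycin and 10.3 and 7.52 CPM without it, while YML131W had 261.4 and 148.4 CPM with rapamycin and 787.2 and 572.0 CPM without it (difference 2.31 ± 0.47, limma adjusted p = 0.0061). SUT355 had 27.9 and 15.0 CPM with rapamycin and 12.5 and 21.9 CPM without it, and the groups overlapped. Its neighbour MCH4, a gene like those of monocarboxylate carriers, had 196.9 and 151.2 CPM with rapamycin and 477.6 and 517.9 CPM without it (difference 1.83 ± 0.42, 0.010, and 0.0931 without no rapa replicate 1). SUT292 had 9.59 and 14.2 CPM with rapamycin and 7.74 and 6.90 CPM without it, and ERV41, a gene of vesicle transport between the endoplasmic reticulum and the Golgi, 27.7 and 28.6 CPM with rapamycin and 49.98 and 41.5 CPM without it (difference 1.36 ± 0.44, 0.038, and 0.322 without no rapa replicate 1 and 0.248 without no rapa replicate 2).

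The other 3 had the SUT below the gene. SUT339 and ESF2 differed by -1.81 ± 0.38 (limma adjusted p = 0.0070). SUT098 had 25.1 and 24.7 CPM with rapamycin and 33.5 and 43.9 CPM without it, while GCG1, a gene of glutathione degradation, had 35.6 and 36.5 CPM with rapamycin and 19.0 and 16.7 CPM without it (difference -1.64 ± 0.36, 0.0085, and 0.100 without no rapa replicate 2). SUT344 and YNR061C differed by -1.37 ± 0.34 (0.013, and 0.0533 without no rapa replicate 1 and 0.130 without no rapa replicate 2). Among divergent pairs whose members both reach a log2 CPM of 3 on average, the largest difference was that of SUT193 with YIR018C-A (2.97 ± 0.43, 0.0014), whose starts lie farther apart. The sparser SUT303 differed from ISF1 by 4.13 ± 0.71 (0.0030). SUT193 had 103.7 and 54.8 CPM with rapamycin and 47.3 and 33.4 CPM without it, and YIR018C-A 9.50 and 12.2 CPM with rapamycin and 51.3 and 39.1 CPM without it.

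Genes whose products end or degrade noncoding RNA were described from a list. Of 33 listed, 30 were analysed: 5 were higher with rapamycin, 2 lower and 23 not called, with a median log2 fold change of -0.02. Over all rows tested 19.3% were higher and 26.7% lower, with a median of -0.03. TRF5, a poly(A) polymerase of the nuclear TRAMP complex, had 145.7 and 137.8 CPM with rapamycin and 32.0 and 35.5 CPM without it (2.07 ± 0.17, edgeR adjusted p = 6.26e-06). DCP2, the decapping enzyme, had 552.4 and 408.5 CPM with rapamycin and 949.2 and 941.4 CPM without it (-0.98 ± 0.22, adjusted p = 0.00362). NRD1 (0.43 ± 0.20, adjusted p = 0.0963) and NAB3 (0.01 ± 0.24, adjusted p = 0.969) were not called. RAT1, the nuclear exonuclease of termination (0.79 ± 0.19), and PTI1, of the cleavage and polyadenylation factor (0.66 ± 0.17), were called, but not without no rapa replicate 1 (adjusted p = 0.0780 and 0.133). The count of 7 called genes was 2 without no rapa replicate 1, 3 without no rapa replicate 2 and 12 without with rapa replicate 1.

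Of 28 chromatin and transcription genes known to restrain noncoding or divergent transcription, 23 were analysed, with 3 higher, 12 lower and 8 not called, and a median of -0.55 (19.3% of all rows tested were higher and 26.7% lower, with a median of -0.03). BUR6, a subunit of the NC2 repressor of TBP, had 9.13 and 15.5 CPM with rapamycin and 51.1 and 63.9 CPM without it (-2.22 ± 0.28, edgeR adjusted p = 5.98e-05). Its partner NCB2 had 1.27 and 3.05 CPM with rapamycin and 16.1 and 14.4 CPM without it (-2.79 ± 0.49, adjusted p = 0.000628). The histone H3 lysine 36 methyltransferase gene SET2 had 172.0 and 130.5 CPM with rapamycin and 315.5 and 312.2 CPM without it (-1.05 ± 0.18, adjusted p = 0.000613). RSC2, of the RSC remodeller, had 171.0 and 166.6 CPM with rapamycin and 314.7 and 340.6 CPM without it (-0.96 ± 0.17, adjusted p = 0.000628). The 3 that rose were SPT16 and POB3, both subunits of the FACT histone chaperone, and ASF1, another chaperone. Each of these 3 calls ended without no rapa replicate 1 (adjusted p = 0.121, 0.0607 and 0.0877), and those of SPT16 and POB3 also without no rapa replicate 2 (0.172 and 0.0973). Among the lower genes, SET3 (-0.55 ± 0.16) was not called without no rapa replicate 1 (-0.64) or without no rapa replicate 2 (-0.48). All these values are amounts of labelled RNA, and the proteins were not measured.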

How the data were processed

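Transcript counts of 4 libraries of 4-thiouracil-labelled RNA were analysed. The authors deposited raw read counts for each annotated transcript together with the annotation, whose start and end positions were used as deposited. Per the submitters' processing notes, STAR 2.3.0, SAMtools and HTSeq were used, with the builds sacCer3 and R64. The filters of these steps are not known here. All 4842 ORF names found in R64 lay inside their deposited transcript, so positions are given on R64. Each count file ends with 5 summary lines that name no transcript, and these entered neither the library totals nor the fits. Reads outside every row made up 33.1% to 50.5% and ambiguous reads at most 0.0930% of reads. The line for reads placed at several sites held 0, so exchange between gene copies is unknown. Spike-ins were not used here, so every change is relative to the bulk of rows. SSL2 was not analysed here, and an anchored protein's own RNA would not check the treatment.

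Counts were fitted in R 4.3.3 by the two-sided quasi-likelihood test of edgeR 4.0.16 with TMM factors and the default filterByExpr over the 5707 rows that passed the filter, with Benjamini-Hochberg adjustment and a threshold of 0.05. "Called" means past this threshold. The SE of a log2 fold change is its size over the root of the F statistic. CPM values use the TMM library sizes. Pair differences were tested with limma 3.58.1 (trend, prior count 2) over 792 noncoding rows and their nearest ORF row. The nearest row is the one with most overlap, opposite strand first, or else the one with the smallest gap. The fits were tested on simulated counts. Sequences were read from the RefSeq R64 genome.

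The named SUTs are the 5 with the highest RPKM without rapamycin, the 8 highest and 8 lowest changes among those called at a mean log2 CPM of at least 3 with groups that do not overlap, the 2 with the smallest adjusted p per position and direction, the 4 largest pair differences per direction among called antisense and divergent pairs with both members at a mean log2 CPM of at least 3 (fewer where fewer exist), and SUT719, with their neighbours and up to 4 called genes of each of the 2 gene lists. The genes NRD1, NAB3, SPT16, POB3, ASF1, GAL1, GAL7 and GAL80 and the transcript SUT331 were named after their values were seen. The members and lists were chosen with earlier results of these data known. Replicates were not copies of each other (chi-square per degree of freedom 66.7 with rapamycin and 82.5 without it). Alternatives were RLE factors, TMM from ORF rows, DESeq2 1.42.0, other filters and prior counts, a replicate block, other geometries and leaving out each library.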

Additional observations from a re-analysis of the deposited data

Results flagged for a closer look

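Reads outside every annotated row, which no comparison used, made up 50.45% of the reads in with rapa replicate 1 and 49.95% in with rapa replicate 2, against 33.72% and 33.05% in no rapa replicates 1 and 2. They were flagged because both with rapa libraries lay above both no rapa libraries. In with rapa replicate 2 the count outside every row (12685766) is almost equal to the sum over rows (12685769), and whether this is chance or an error in the file is not known. The reads are given only as a total, so where they fell was not analysed here.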

How the results depend on the processing

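Leaving out 1 library at a time moved the SUTs called higher between 32 and 193 (96 with all 4) and those called lower between 12 and 55 (27), antisense SUTs higher between 26 and 126 (72) and lower between 4 and 22 (11), and divergent SUTs higher between 2 and 24 (10) and lower between 3 and 13 (5). It moved pairs with the SUT above its neighbour between 46 and 184 (101) and below it between 17 and 69 (28), termination and decay genes called between 2 and 12 (7), the correlation across antisense pairs between -0.0378 and 0.0733 (0.0036) and across divergent pairs between 0.0110 and 0.297 (0.210). A lone library was assumed to vary like the other group. SUTs that overlap no row gave 17 higher and 13 lower of 100 tested, and pairs that no further row overlaps 55 above and 12 below, since fewer enter. With at least 50 counts the antisense correlation was -0.0508 and divergent SUTs higher were 5. Geometry by the nearest start gave 49 divergent SUTs higher and 20 lower. By all R64 protein-coding genes, an alternative chosen after seeing the data like that on same-strand overlap, antisense SUTs lower were 20 and divergent SUTs lower 2. The replicates share only a number (correlation of their deviations 0.233). With the replicate block, 100 SUTs were higher and 34 lower, 119 pairs above and 36 below, termination and decay genes called were 11 and the antisense correlation was -0.00618. RLE factors, TMM from ORF rows, DESeq2 and no filter kept the counts of higher and lower SUTs within 83 to 109 and 20 to 28. The log2 fold change of SUT355 ranged from -0.226 to 0.79 (0.32 with all 4), reversed without no rapa replicate 1 (-0.0431) and without with rapa replicate 1, and that of SUT063 from -0.60 to 0.0258 (-0.30), reversed without with rapa replicate 2. Except where the setting itself removes rows or libraries, the cause was not tested. Sparse SUTs limit the calls of falls.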
